A study of Mus musculus with 8 samples.

Results

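The enzymes of fatty acid oxidation were described in nephron progenitor cells with and without Vhl, as 31 named genes of 20254 in the deposited table. They were chosen by name for their place in the pathway, with earlier results of these data known. Of them 25 were grouped as mitochondrial, 4 act in the peroxisome, and 2 encode regulators of the pathway. The mitochondrial group holds all listed acyl-CoA synthetases and carnitine transferases, also those such as Acsl3 and Cpt1c with another main site or little activity. All 31 were found in the table, and 30 reached 10 normalised reads (reads divided by the size factor of a library) in at least 4 libraries and were tested. The gene below that minimum was Cpt1b.

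Cells were taken from kidneys of mouse embryos at day 17.5 and sorted for GFP. All libraries came from the strain Six2EGFPcre, in which a GFP and Cre fusion is driven by Six2, so that the deletion is limited to cells that have expressed Six2. The 4 control libraries have the genotype VHLNP+/- and the 4 mutant libraries VHLNP-/-, so the controls also carried the transgene and a deleted allele. Vhl encodes the part of a ubiquitin ligase that binds the alpha subunits of the hypoxia-inducible factors. Whether each library came from its own embryo or from a pool is not in the labels, so p-values measure the spread between these libraries, which may be partly technical.

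Fatty acids are oxidised after they are joined to coenzyme A by acyl-CoA synthetases. Long chains enter the mitochondrion as carnitine esters, and a spiral of dehydrogenase, hydratase, hydroxyacyl dehydrogenase and thiolase steps then removes acetyl-CoA units. Electrons of the first step reach the respiratory chain through the electron transfer flavoprotein, and very long and branched chains are first shortened in the peroxisome. In the adult kidney the proximal tubule is known for its high rate of this oxidation, while nephron progenitors are known for a strong use of glycolysis.

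Of the 30 tested genes, 1 rose in the mutants and 0 fell, at an adjusted p under 0.05 from limma, and the other 29 missed that threshold. Across all 15381 tested genes 5.40% were called higher and 3.03% lower, or 8.43% in either direction. The risen gene was Acaa2, the mitochondrial thiolase of medium chains. Estimates lay below 0 for 23 of the 30 genes, against 51.5% of all tested genes, and the median log2 fold change of the 30 was -0.07 against -0.01 over all tested genes. At an unadjusted p under 0.05, 2 of the 30 lay higher (Acsl3 and Acaa2) and 5 lower (Cpt1c, Acadl, Acads, Hadhb and Eci1), where 12.0% of all tested genes lay higher and 11.2% lower. By comparison, the authors' deposited table called 1 of the genes higher and 2 lower, against 7.12% and 5.35% of its 15144 genes with an adjusted p.

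**Figure D1:**
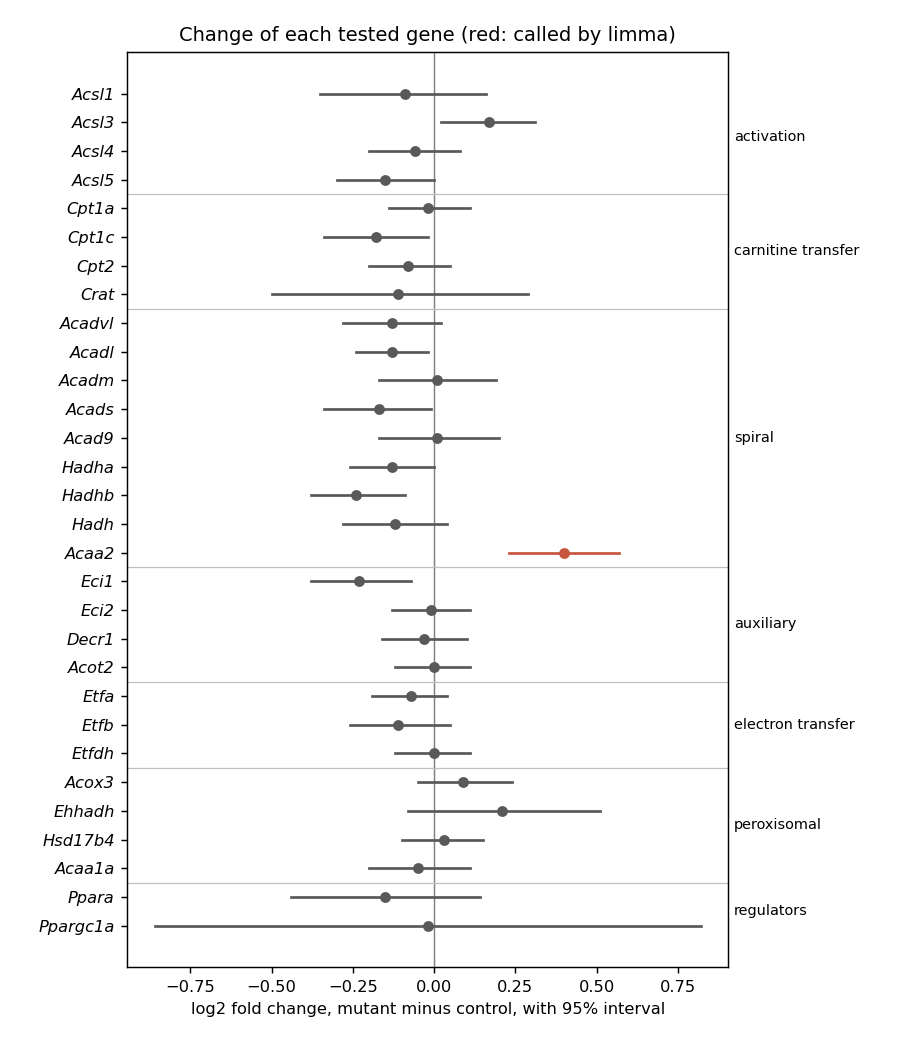
Log2 fold change of each tested gene, mutant minus control (x axis), with its 95% interval from limma, 4 libraries per group; genes are ordered by step of the pathway. Acaa2, in red, stands at 0.40 and is called, while the other estimates lie between -0.24 and 0.21.

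The libraries held between 37252683 and 46515762 reads over genes. Vhl, which lies on chromosome 6 from 113623959 to 113631633 (mm10), was at 1134, 1379, 1208 and 1180 (1179.7) normalised reads in controls 1 to 4 and at 320.2, 285, 331 and 336 in mutants 1 to 4. Its log2 fold change was -1.94 (SE 0.08, adjusted p = 4.22e-08 by limma, two-sided exact permutation p = 0.0286, the smallest that 4 against 4 libraries can give). Nephron progenitor markers were present in all libraries, with Six2 between 21553 and 28134 normalised reads, and 1 of these 10 markers was called higher and 2 lower. The 12 proximal tubule markers, among them the phosphate transporter gene Slc34a1, summed to between 2271 and 9478 in controls and between 3222 and 10015 in mutants, and control 3 and mutant 2 were lowest within their groups. The same libraries were also lowest in their groups for the summed markers of the distal tubule (505 and 1751), ureteric bud (785 and 1492), stroma (24458 and 20446), endothelium (1018 and 1589) and leukocytes (547 and 630.0), and highest for those of nephron progenitors (130801 and 126275). The sums of other marker lists overlapped between the groups for the distal tubule, podocytes, ureteric bud, stroma, endothelium, leukocytes and erythroid cells, although the median log2 fold change of the 7 podocyte markers was -1.0 and 1 of 8 endothelial markers was called higher (Plvap). They did not overlap for skeletal muscle (444 to 506 in controls, 660 to 719 in mutants), where Tnnt3 was called and Ckm and Myog were near 0. Fat markers such as Ucp1 and Adipoq were at or near 0, with sums of 3 to 6 in controls and 3 to 5 in mutants. In sorted bulk cells, fewer cells of a type and less RNA per cell cannot be told apart. Control 2 and mutant 2 had 8.8 and 51.9 normalised reads of Xist, where the other libraries had between 60017 and 111673.

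Start regions of 3 genes are printed here because they precede the enzymes with the lowest estimates in the spiral and beside it. Hadha and Hadhb encode the alpha and beta subunits of the mitochondrial trifunctional protein and lie head to head on chromosome 5 (GRCm38, which is mm10), Hadha from 30118304 to 30155162 on the minus strand and Hadhb from 30155248 to 30184593 on the plus strand. The 85 bases between their starts in the GENCODE annotation are printed once, for both genes. Acads, the short-chain dehydrogenase gene, lies on chromosome 5 from 115110299 to 115119346 on the minus strand, and Eci1, an enoyl-CoA isomerase gene, on chromosome 17 from 24426641 to 24439348 on the plus strand. Sequences are from RefSeq's GRCm38.p6 table, 5′ to 3′ on the strand of the gene (of Hadhb for the bases between it and Hadha). They end at the base before the GENCODE start. Capitals mark the core of a hypoxia response element, ACGTG or GCGTG on either strand, and the words do not overlap each other.
Hadha and Hadhb, chr5:30155163-30155247: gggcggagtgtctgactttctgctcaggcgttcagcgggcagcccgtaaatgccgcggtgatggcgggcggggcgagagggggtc
Acads, chr5:115119347-115119596: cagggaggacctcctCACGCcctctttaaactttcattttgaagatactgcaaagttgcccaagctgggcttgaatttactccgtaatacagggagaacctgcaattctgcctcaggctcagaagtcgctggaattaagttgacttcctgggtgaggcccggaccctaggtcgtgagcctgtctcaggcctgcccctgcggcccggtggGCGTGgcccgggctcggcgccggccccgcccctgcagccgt
Eci1, chr17:24426433-24426640: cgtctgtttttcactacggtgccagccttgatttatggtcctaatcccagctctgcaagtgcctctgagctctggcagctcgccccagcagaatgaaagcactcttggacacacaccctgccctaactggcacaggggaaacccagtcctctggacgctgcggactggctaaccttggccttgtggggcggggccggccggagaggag
The core is in 2 places of the Acads stretch and in 0 places of the other stretches, although the longer window of Hadhb, described next, holds it in 1 place outside the printed bases. In windows of 300 bases around the start (250 before and 50 after), 16 of the 25 pathway genes whose window was used hold it (64.0%), against 43.77% of all 32851 windows. The count leaves out Acaa2, the called gene, and Hsd17b4, Cpt1b, Crat, Acad9 and Decr1, whose windows were not used here. The units differ, since a pathway gene counts where any of its windows holds the core, whereas the 43.77% counts windows. Acsl1 has a window with the core and another without it. The windows follow starts of their own, which can lie apart from the GENCODE starts above. That of Hadha runs from 30154931 to 30155230. The direct repeat of AGGTCA with a spacer of 1 base, bound by PPAR with its partner RXR and searched on both strands, is in 0 of the windows of these genes and in 0.04% of all windows. These are matches of letters and not measured sites.

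Activation of fatty acids is the work of the acyl-CoA synthetases, of which 4 were measured and 0 were called. Acsl3, a synthetase of the endoplasmic reticulum and lipid droplets, had the highest level of them per length (1571 normalised reads per kb of exon in controls). It was at 7215, 6407, 6757 and 6995 normalised reads in controls 1 to 4 and at 7047, 7521, 8524 and 7676 in mutants 1 to 4. Only mutant 1 lay within the control range, and the log2 fold change of 0.17 (SE 0.07) was not called (limma adjusted p = 0.161). Acsl5, which is found at mitochondria and the endoplasmic reticulum, was at 1420 (1419.8), 1558, 1387 and 1551 in controls and at 1414, 1206, 1321 and 1397 in mutants. Its lowest values were in mutants 2 and 3, and its estimate was -0.15 with a 95% interval of -0.30 to 0.00 (adjusted p = 0.226). Acsl4, which prefers arachidonic acid, averaged 1399.7 ± 75.8 in controls against 1342 ± 80.3 in mutants (limma adjusted p = 0.627; SD, n = 4 each).

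Acsl1, the synthetase best known from liver, heart and fat, was at 916, 863, 654 and 874 in controls and at 843, 652, 795 and 796 in mutants. Control 3 and mutant 2, which in their groups had the lowest marker sums for the tubules, ureteric bud, stroma, endothelium and leukocytes and the highest for nephron progenitors, were lowest, and the other 6 libraries lay between 795 and 916. The log2 fold change was -0.09 with an interval of -0.35 to 0.16, and it was -0.12 (SE 0.07, adjusted p = 0.39) without these libraries.

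Carnitine transfer carries long chains into the matrix, and of its 5 genes 4 were tested and 0 were called. The control point of the pathway, carnitine palmitoyltransferase 1 of the outer membrane, was represented mainly by the isoform Cpt1a. Cpt1a was at 3659, 3428, 3197 and 3450 (3449.8) in controls and at 3442, 3495, 3224 and 3417 in mutants. The groups overlapped over almost their whole range, and the 95% interval of the log2 fold change (-0.14 to 0.11) leaves room for a fold between 0.908 and 1.08. The muscle isoform Cpt1b had between 3 and 10 reads per library, and most of its transcript sequence (78.6% of words of 50 bases) is shared with the overlapping gene Gm44502. Cpt1c, the isoform of neurons, which has little transferase activity, was at 1345, 1117, 1336 and 1219 in controls and at 1026, 1108, 1148 and 1149 in mutants. Its lowest control value, in control 2, lay below the highest mutant value, and its estimate of -0.18 (SE 0.07) was not called (adjusted p = 0.175). Per kb of exon, controls had 449 ± 24.7 normalised reads of Cpt1a and 224 ± 19.2 of Cpt1c (SD, n = 4 each).

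Cpt2, which rebuilds acyl-CoA at the inner membrane, averaged 1344 ± 35.3 in controls against 1277 ± 66.6 in mutants (limma adjusted p = 0.481; SD, n = 4 each). Crat, which moves acetyl groups between carnitine and coenzyme A, was at 1232, 1199, 1531 and 1364 in controls and at 1652, 1401, 999 and 996 in mutants. The mutant libraries lay on both sides of the controls, 1 above all of them and 2 below, and the log2 interval of -0.50 to 0.29 was wide. The sources used here do not say how the counting treated strand, and Crat is among 13 of the genes that overlap a gene on the other strand, as are Acadl, Acadvl, Cpt1c, Hadha and Ppargc1a but not Acaa2, Hadhb, Eci1 or Acads.

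**Figure D2:**
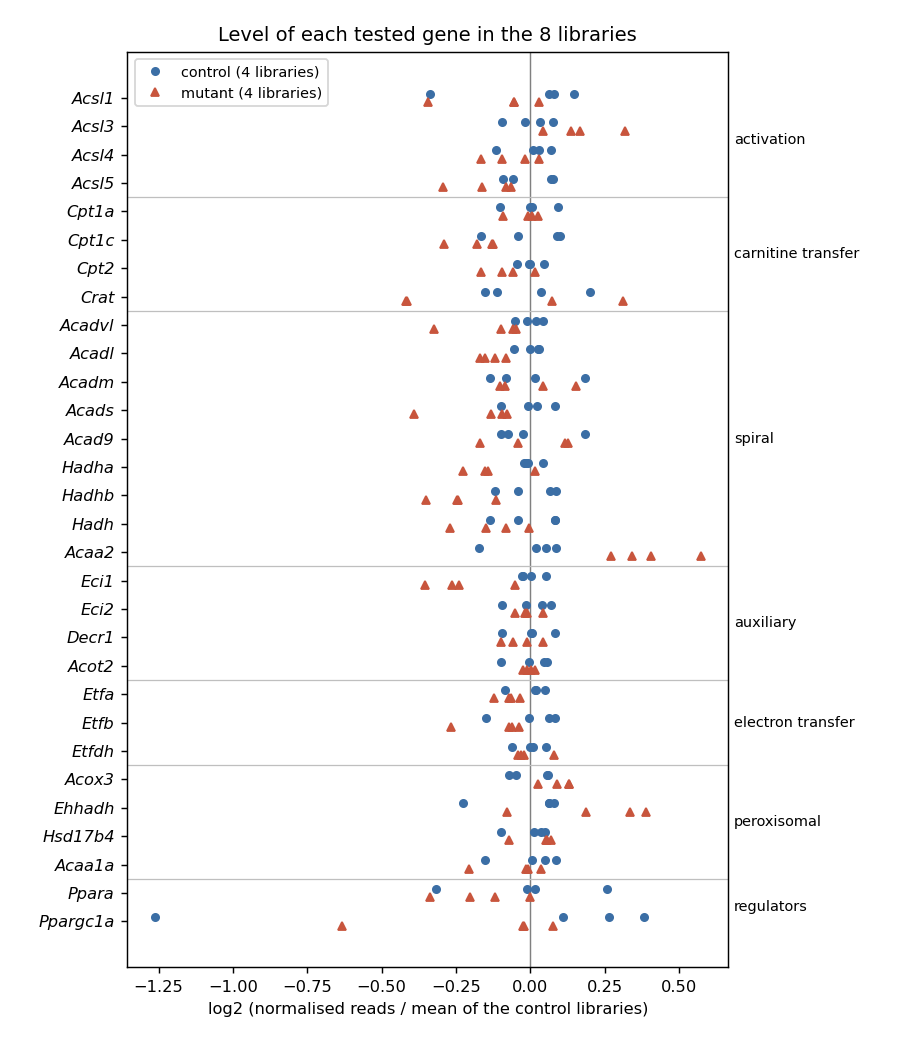
Level of each tested gene in each of the 8 libraries as log2 of normalised reads over the mean of the 4 controls (x axis), with circles for controls and triangles for mutants, ordered by step. The groups are apart for Acaa2, Acadl and Eci1. Of all tested genes, 8.54% are apart with mutants higher and 6.72% with mutants lower. Single low libraries stand out for Ppargc1a (control 3, 88.7 normalised reads) and Acads (mutant 3, 2438).

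Among the 9 genes of the mitochondrial spiral 1 rose, 0 fell and 8 were not called, with a median log2 fold change of -0.13. Acaa2, on chromosome 18 from 74779197 to 74806208, was at 6034, 7222, 6888 and 7056 normalised reads in controls 1 to 4 and at 8625, 10112, 8204 and 9006 in mutants 1 to 4. Each mutant library was above each control library, as in 8.54% of all tested genes. Its mean rose 1.32-fold (95% interval 1.17 to 1.49), a log2 fold change of 0.40 (SE 0.08, limma adjusted p = 0.00805), and the authors' deposited table gives 0.40 with an adjusted p of 2.71e-05. Acaa2 was called in all 19 alternatives tried, with adjusted p between 2.71e-05 and 0.043, the highest without control 3 and mutant 2. Of its transcript words of 50 bases, 0.0% were found in another gene's transcripts, and 0 annotated genes overlap it. Per kb of exon it was the most abundant of the 31 genes in both groups, at 4486 ± 349 and 5928 normalised reads.

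The partner enzymes of the long-chain end of the spiral were not higher. Hadhb encodes the long-chain thiolase, which does on long chains what Acaa2 does on medium ones. It was at 4074, 4695, 4296 and 4635 in controls and at 4087, 3735, 3469 and 3733 in mutants. Mutant 1 lay just above the lowest control, and the other mutants lay below all controls. The log2 fold change of -0.24 (SE 0.07) missed the threshold (limma adjusted p = 0.0533). It passed in 5 of 19 alternatives, with adjusted p between 0.00366 and 0.257, among them the fits without control 1 (0.0264) or mutant 1 (0.0316) and the authors' deposited table (0.0117). Part of its sequence (18.1% of words of 50 bases) is shared with Gm13910.

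Hadha, which carries the hydratase and the long-chain hydroxyacyl dehydrogenase, was at 6871, 6910.1, 6845 (6844.5) and 7161 in controls and at 7016, 6289.9, 5941 and 6247 in mutants. As for Hadhb, mutant 1 was within the control range and the other mutants were below it. The estimate was -0.13 (SE 0.06, adjusted p = 0.227). Hadh, the dehydrogenase of medium and short hydroxyacyl chains, was at 6046 ± 437 and 5553 ± 430 (SD, n = 4 each, limma adjusted p = 0.342).

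**Figure D3:**
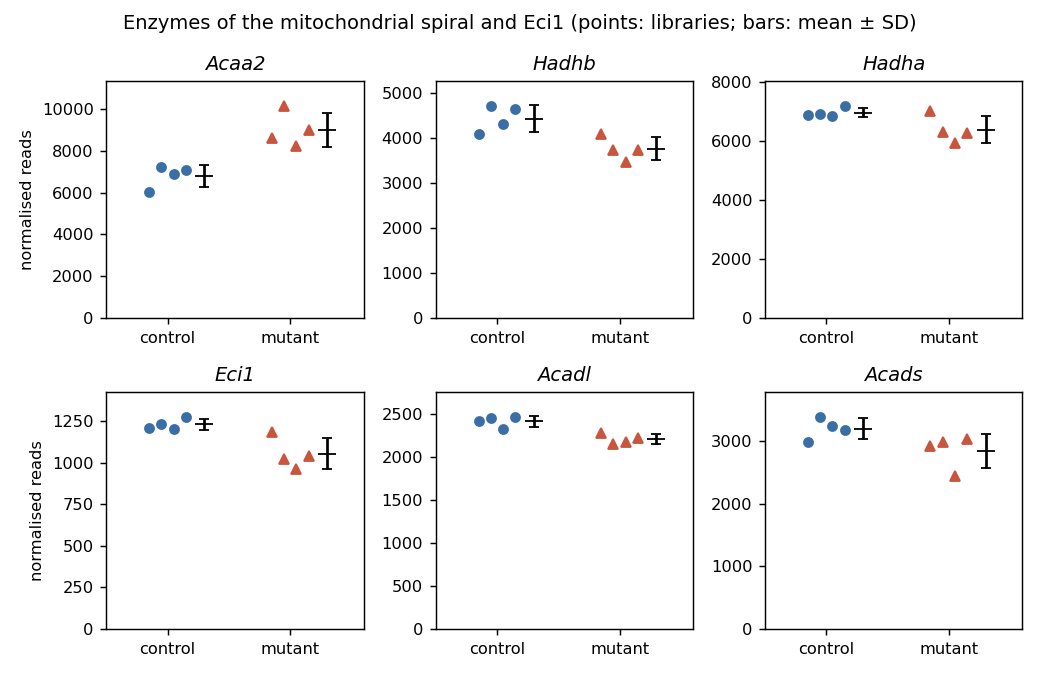
Normalised reads (y axis, from 0) of 6 enzymes in 4 control and 4 mutant libraries, with the mean and SD beside the points. Acaa2 is higher in each mutant library (8204 to 10112 against 6034 to 7222), whereas for Hadhb, Hadha and Eci1 mutant 1 is the highest mutant library and lies within or close to the controls.

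The acyl-CoA dehydrogenases take the first step and are sorted by chain length. Acadl, for long chains, was at 2420.4, 2463, 2330.2 and 2467 in controls and at 2286.5, 2149, 2179 and 2226 in mutants. All mutant libraries lay below all controls, as in 6.72% of all tested genes, by a small margin, and the estimate of -0.13 (SE 0.05) was not called (limma adjusted p = 0.142). Acads, for short chains, was at 2985, 3386, 3247 and 3182 in controls and at 2920.2, 2991, 2438 and 3032 in mutants. Mutants 2 and 4 overlapped with control 1, and mutant 3 was lowest (log2 fold change -0.17, SE 0.08, adjusted p = 0.193).

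Acadvl, for very long chains, was at 2331 ± 66.8 and 2132 ± 184 (SD, n = 4 each, limma adjusted p = 0.271), and it shares 26.9% of its transcript words with Dvl2 on the other strand. Acadm, for medium chains and so upstream of Acaa2, was at 2356, 1961, 1889 and 2097 in controls and at 2139.7, 1932, 2306 and 1958 in mutants. The groups covered the same range, with an estimate of 0.01 and an interval of -0.17 to 0.19. Acad9, which also helps to assemble respiratory complex I, was at 2745 ± 256 and 2770.1 ± 268 (SD, n = 4 each, limma adjusted p = 0.95).

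Of the 4 auxiliary enzymes of the matrix, which handle unsaturated chains or release free acids, 0 were called. Eci1, which shifts double bonds, was at 1208, 1233, 1206 and 1275 in controls and at 1188, 1026, 963 and 1042 in mutants. All mutant libraries lay below all controls, as in 6.72% of all tested genes, with mutant 1 close to them. The estimate was -0.23 (SE 0.07, limma adjusted p = 0.073). It passed the threshold in 3 of 19 alternatives, which were library quality weights (0.0108), the fit without mutant 1 (0.0198) and the authors' deposited table (0.041). Eci2, its relative in mitochondria and peroxisomes, was at 3189 ± 157 and 3168 ± 84.1 (SD, n = 4 each, limma adjusted p = 0.949). Decr1, the dienoyl-CoA reductase, had a log2 interval of -0.16 to 0.10. Acot2, a matrix thioesterase, had one of -0.12 to 0.11, and it shares 24.5% of its transcript words with Acot1, which was not called either (log2 fold change -0.03, adjusted p = 0.827).

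The electron transfer genes gave 0 calls in 3. Etfa and Etfb, the subunits of the flavoprotein, were at 2519 ± 101 and 2754 ± 195 in controls against 2394 ± 58.7 and 2557 ± 181 in mutants (limma adjusted p = 0.44 and 0.404; SD, n = 4 each). Etfdh, the dehydrogenase that passes the electrons to ubiquinone, was at 2050.4 ± 66.3 and 2047 ± 80.7 (SD, n = 4 each, limma adjusted p = 0.983). Etfb shares 43.8% of its transcript words with Gm45233, a gene model on the same strand.

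Summed over the 25 mitochondrial genes, the libraries held 68820, 71540, 69849 and 72371 normalised reads in controls 1 to 4 and 71763, 71330, 67063 and 70089 in mutants 1 to 4. The groups overlapped, and the lowest sum was in mutant 3. The sum includes Acaa2, the 1 called gene. Of the 24 tested mitochondrial genes, 20 had estimates below 0, where 51.5% of all tested genes did. The median log2 fold change of the 24 was -0.08. Mutant 3 was the lowest mutant library for 17 of the 30 tested genes, and control 3 the lowest control for 13. How many of all tested genes were lowest in these libraries was not counted, so the counts may belong to the libraries and not to these genes. Acaa2 was also the single mitochondrial gene called when mutant 2 was left out together with control 3, and again when it was left out together with control 2.

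The 4 peroxisomal genes gave 0 calls by limma, 0 at an unadjusted p under 0.05, 0 in the authors' deposited table and 0 by limma-voom on the recovered reads. Their median log2 fold change was 0.06. Acox3, the oxidase of branched chains, was at 778, 780 (779.7), 713 and 724 in controls and at 819, 820 (819.7), 762 and 797 in mutants. Mutants 1, 2 and 4 lay above all controls and mutant 3 did not, and the estimate was 0.09 (SE 0.06, adjusted p = 0.413). Ehhadh, the bifunctional enzyme known as a target of PPAR alpha in liver, had few reads, at 167, 167, 137 and 169 in controls and at 202, 182, 209 and 151 in mutants. Mutants 1 to 3 lay above all controls and mutant 4 within them (log2 fold change 0.21, interval -0.08 to 0.51, adjusted p = 0.384).

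Hsd17b4, the other bifunctional enzyme, was the most abundant peroxisomal gene per length and was at 3889, 4203, 4275 and 4312 in controls and 4332, 4373, 3969 and 4321 in mutants. Its estimate was 0.03 (interval -0.10 to 0.15). The peroxisomal thiolase Acaa1a was at 2803 ± 198 and 2714 ± 195 (SD, n = 4 each, limma adjusted p = 0.753), and its near copy Acaa1b, with which it shares 12.4% of its transcript words, had a log2 fold change of -0.07 (adjusted p = 0.636). Whether the mitochondrial and the peroxisomal genes differed in response was not tested.

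**Figure D4:**
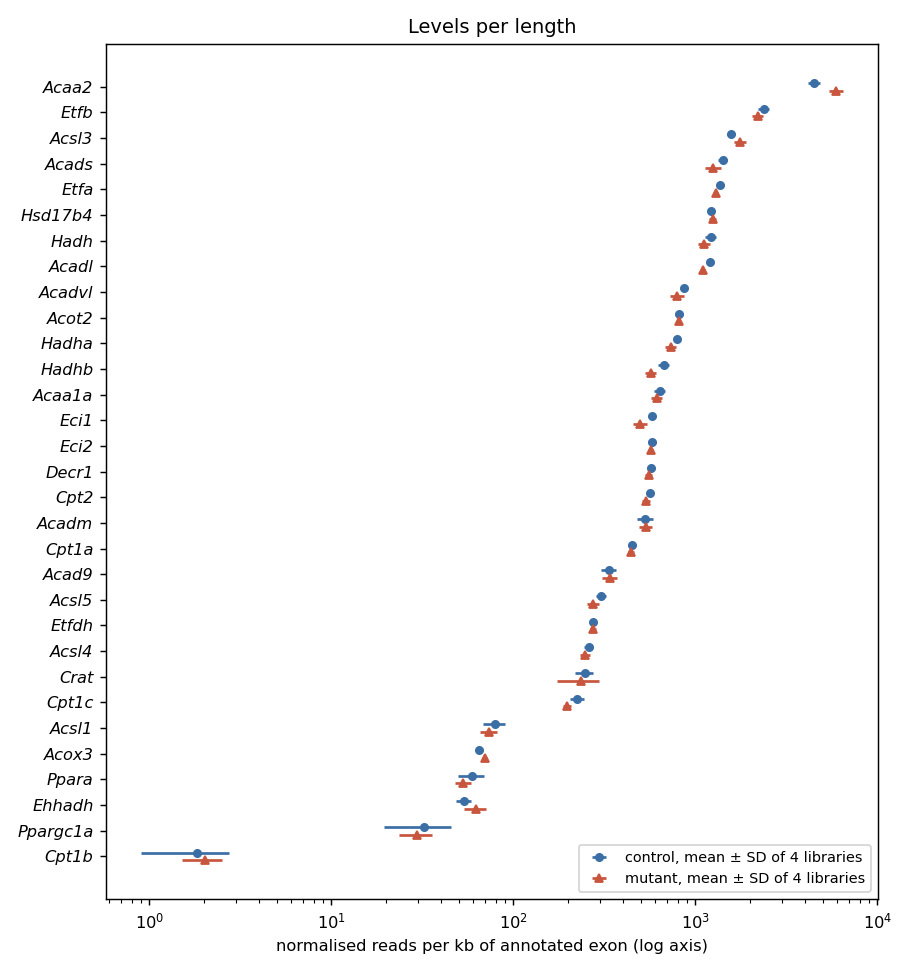
Mean level of the 31 genes in normalised reads per kb of annotated exon (x axis, log scale) with the SD of 4 libraries, circles for controls and triangles for mutants, ordered by the control level. Acaa2 is at the top, Acox3, Ehhadh and the regulators are near the bottom, and Cpt1b is lowest at 1.82 in controls.

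Per length the levels spanned a wide range. After Acaa2 the order in controls was Etfb (2366 ± 168 normalised reads per kb), Acsl3 (1571 ± 79.4), Acads (1410.3 ± 73.4) and Etfa (1373 ± 55.3; SD, n = 4 each). Acads and Etfa did not differ beyond their spread, and neither did Hsd17b4, Hadh and Acadl, which lay between 1207 and 1225. Acsl1, Acox3, Ppara and Ehhadh lay between 53.6 and 78.9. In these lengths all annotated exons count, so genes with many isoforms appear lower.

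Both regulators were low. Neither was called by limma, neither had an unadjusted p under 0.05, and the authors' deposited table called 0 of them. Ppara, the nuclear receptor that drives fatty acid oxidation genes in liver, was at 272, 183, 225 and 230 (229.6) normalised reads in controls and at 227, 197, 209 and 180 (180.0) in mutants. Its groups overlapped (log2 fold change -0.15, interval -0.44 to 0.14, adjusted p = 0.554). Ppargc1a, the coactivator known for driving mitochondrial biogenesis, was at 278, 230 (229.8), 88.7 and 256 (255.5) in controls and at 224, 137, 209 and 210 (209.8) in mutants. Control 3 and mutant 2 were again lowest in their groups. With all libraries the estimate was -0.02 with an interval of -0.86 to 0.82, the widest of the 30 genes, and without these libraries it was -0.24 (SE 0.12, adjusted p = 0.322).

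**Figure D5:**
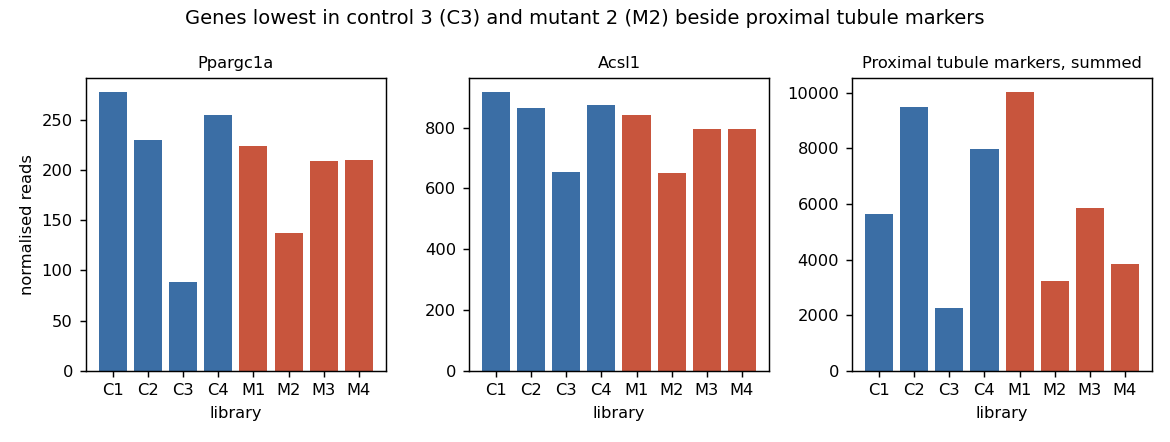
Normalised reads (y axes, from 0) of Ppargc1a, Acsl1 and the sum of 12 proximal tubule markers in each library (C1 to C4, controls; M1 to M4, mutants). In control 3 and mutant 2 all 3 quantities are lowest within their group, as are the marker sums of the distal tubule, ureteric bud, stroma, endothelium and leukocytes, which are not drawn.

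In all, 6 of the 30 genes were lowest both in control 3 among the controls and in mutant 2 among the mutants. They were Acsl1, Acsl5, Acadl, Acadm, Etfa and Ppargc1a. The share of all tested genes with this pattern was not counted. Over all tested genes, deviations from the group means correlated at 0.57 between control 3 and mutant 2. This was the highest value of any pair of a control and a mutant library. The proximal tubule sums were 5622, 9478, 2271 and 7966 in controls 1 to 4 and 10015, 3222, 5838 and 3841 in mutants 1 to 4. The part of these and the other marker sums in the levels of the 6 genes was not tested.

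Other genes of the pathway, in 7 lists of 116 genes in all with 108 tested, gave 2 called higher and 2 called lower. That is against 5.40% and 3.03% of all tested genes. Among 20 tested genes of other mitochondrial acyl-CoA steps, 0 rose and 1 fell. This was Pcca, the alpha subunit of propionyl-CoA carboxylase, which takes up the end product of odd chains. It was at 521, 517, 543 and 638 in controls and at 455, 360 (359.8), 386 (385.5) and 348 in mutants. All mutants lay below all controls, as in 6.72% of all tested genes. It fell, with a log2 fold change of -0.52 (SE 0.11, adjusted p = 0.0104 by limma). The call held with any single library left out (adjusted p of up to 0.0428) and was lost when mutant 2 and a control were dropped together (0.0637 with control 3, 0.0548 with control 2). Slc25a20, the carnitine carrier, named after its values were seen, was at 1262 ± 79.5 and 1209 ± 61.7 (SD, n = 4 each, limma adjusted p = 0.626).

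Among 9 tested genes around malonyl-CoA, the inhibitor of Cpt1, 1 rose and 0 fell. Prkab2, a beta subunit of the AMP-activated kinase, was at 939, 870 (870.0), 896 and 793 in controls and at 1237, 1266, 1396 and 1385 in mutants. It rose 1.51-fold (log2 fold change 0.59, SE 0.07, limma adjusted p = 3.03e-04), with all mutants above all controls, as in 8.54% of all tested genes. Acaca, the carboxylase that makes malonyl-CoA in the cytosol, had an estimate of -0.21 and was not called (limma adjusted p = 0.0548). All mutant libraries (4853 to 5071) lay below all controls (5366 to 6404), as in 6.72% of all tested genes. The authors' deposited table called Acaca lower (adjusted p = 0.00874). Acaca is named after its values were seen, as are Mlycd, the malonyl-CoA decarboxylase, and Acacb, the mitochondrial carboxylase. Mlycd and Acacb had log2 fold changes of 0.00 and 0.07.

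Among 12 tested genes of fatty acid uptake and binding 1 rose and 0 fell. Slc27a3, of the fatty acid transport protein family, was at 844, 886, 882 and 859 in controls and at 1438, 1439, 1312 and 1395 in mutants. It rose 1.61-fold (log2 fold change 0.68, SE 0.06, limma adjusted p = 1.53e-05), the largest change among the members and these lists that was called. Among 8 tested genes of ketone body metabolism, 4 were lower and 1 was higher with a limma p below 0.05 before adjustment. Over all tested genes these shares were 11.2% and 12.0%. Of the same 8 genes, 3 were called lower and 0 higher in the authors' deposited table. With the adjusted p of limma, 0 of the 8 rose and 1 fell. Oxct1, which lets cells outside the liver use ketone bodies, was at 10052, 10569.9, 9779 and 10714 in controls and at 9275, 8526, 8436 and 8719 in mutants. It fell, with a log2 fold change of -0.23 (SE 0.05, limma adjusted p = 0.0229). The call held in 10 of 19 alternatives and was lost, among others, without control 2 (0.0751), control 4 (0.0836), mutant 2 (0.0662), mutant 3 (0.059) or mutant 4 (0.0746), under the replicate block (0.0933) and with the values as deposited (0.18).

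The other 3 lists gave 0 calls by limma. Among 21 tested genes of peroxisomal oxidation the unadjusted p was under 0.05 for 1 higher and 2 lower genes. A single gene was called higher in the authors' deposited table, Scp2, a peroxisomal thiolase and lipid carrier (log2 fold change 0.16, limma adjusted p = 0.108). Of 16 peroxisome biogenesis genes 0 lay higher and 1 lower at an unadjusted p under 0.05, which was Pex14, a docking protein of peroxisomal import (log2 fold change -0.18, adjusted p = 0.202), and the authors' deposited table called 0. Of 22 nuclear receptors and coactivators 4 reached that level, 2 in each direction, and 1 of the 22 was called in the authors' deposited table, Pprc1, a coactivator related to Ppargc1a (log2 fold change -0.34, limma adjusted p = 0.0551).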

How the data were processed

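Polyadenylated RNA of 8 libraries was sequenced with a stranded kit, per the labels. The submitters' processing notes name the aligner STAR (2.5.3a), the package DESeq2 (1.18.1) and the build mm10. The sources used here do not name the counter, its annotation or its use of strand. The deposited values are a signal, reads per gene divided by size factors, and the values show a second division by size factors recycled down the genes. Both divisions were undone. The whole reads so recovered gave back the authors' own mean for 20254 of 20254 genes (relative tolerance 1e-09). The deposited table also holds the authors' log2 fold changes, p-values with adjusted p-values, and a score that was not used.

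Normalised reads are the recovered reads divided once by the size factor. Genes with at least 10 in at least 4 libraries (15381) were put on the scale log2(value + 1), which understates changes of low genes, and compared with limma 3.58.1 in R 4.3.3 (variance trend, robust, no covariate, two-sided, Benjamini-Hochberg over all tested genes). Libraries were grouped by title. The groups, lists and alternatives were written down, and the members chosen, with earlier results of these data known. Named genes are the members, Vhl and, from each of the 7 pathway lists, the called genes (up to 4) or the gene with the smallest adjusted p. The alternatives were other pseudocounts, no filter, another scaling, quality weights, a replicate block, the values as deposited, the authors' comparison, each library left out and 3 settings added after seeing the data (limma-voom and the removal of 2 pairs of libraries). The fit was also run on simulated counts as a check of the code. Its libraries were independent of each other, so it does not bear on the genes that were not called. Exon lengths and shared words of 50 bases come from GENCODE vM21. Values of some single genes of the lists are not reported here.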

Additional observations from a re-analysis of the deposited data

Results flagged for a closer look

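In 76 groups of 4 libraries (tested members and other named genes), 4 had a library apart from the others beyond Dixon's 95% critical value for the gap over the range, which chance passes in about 1 of 20 groups. Mutant 3 was low for Etfb, at 2288.1 normalised reads where the other mutants had 2622.8 to 2680.2, and for Hsd17b4, at 3969.2 where they had 4320.7 to 4373.2. Mutant 1 was high for Etfdh, at 2166.2 where the other mutants had 1992.1 to 2021.1. Control 3 was low for Ehhadh, at 136.7 where the other controls had 166.9 to 169.1.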

How the results depend on the processing

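Acaa2, Prkab2, Slc27a3 and Vhl were called in all 19 alternatives, and the peroxisomal and regulator genes gave 0 calls in each. The number of all called genes (1297) was 2996 with library quality weights, 766 with the replicate block, 698 with the values as deposited, 764 without control 3 and mutant 2, 662 without control 2 and mutant 2, and 774 to 1565 with a library left out (816 without control 4, 774 without mutant 4). The block kept the call of Acaa2. The labels do not say whether the replicate numbers pair the libraries. Correlations of same-numbered deviations were 0.21, -0.14, -0.14 and 0.06, and mutants 1 to 4 did not all correlate best with their own number. The highest correlation was 0.57, between control 3 and mutant 2. Such other differences between libraries can hide a pairing, so these values cannot decide the question. The mitochondrial count (1) was 2 with upper-quartile scaling, 5 with quality weights and 3 in the authors' deposited table, and 1 to 3 with a library left out (2 without control 1, 3 without mutant 1). The calls added to Acaa2 were all lower. They were Hadhb and Eci1 and, with quality weights alone, Acadl and Hadha (limma adjusted p = 0.0331 and 0.0449). The count of other pathway genes (4) was 7, 22 and 10 under the same 3 settings, and 3 to 9 with a library left out (9 without control 1). Estimates near 0 changed sign without a call. Without control 2 and mutant 2, Acsl1 was 0.0085, Acad9 -0.03, Acot2 0.02 and Ppargc1a 0.21. Without control 3 and mutant 2, Acadm was -0.0014, Acot2 0.0024 and Etfdh 0.0064. With quality weights Acadm was -0.03. With a library left out the ranges were -0.05 to 0.02 for Cpt1a, -0.04 to 0.07 for Acadm, -0.03 to 0.08 for Acad9, -0.04 to 0.01 for Eci2, -0.04 to 0.02 for Acot2, -0.03 to 0.01 for Etfdh, -0.0059 to 0.06 for Hsd17b4, -0.10 to 0.006 for Acaa1a and -0.40 to 0.14 for Ppargc1a. The cause of these shifts was not tested. Depth limits Cpt1b, with 3 to 10 reads per library, and among the tested genes weighs most on low ones such as Ehhadh.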

Other observations

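Acaa2 and Hadhb, the thiolases of the mitochondrial spiral, can be compared within each library. Per kb of exon, the ratio of Acaa2 to Hadhb was 6.44, 6.69, 6.98 and 6.62 in controls 1 to 4 and 9.18, 11.78, 10.29 and 10.5 in mutants 1 to 4. The ratio of Acaa2 to Hadh, the enzyme of the step before it for medium chains, was between 3.6 and 3.85 in controls and between 4.69 and 6.08 in mutants. Both ratios were formed after the values were seen and are given with no test. Their size rests on annotated exon lengths, in which all exons count (1516 bases for Acaa2, 6595 for Hadhb and 4977 for Hadh). Before division by length, controls averaged 6800 normalised reads of Acaa2 and 4425 of Hadhb. The lengths are the same in both groups, so they do not bear on the difference between the groups. The ratio of Hadha to Hadhb, whose genes lie head to head and encode subunits of a single complex, lay between 1.11 and 1.27 in controls. In mutants it lay between 1.26 and 1.3.

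Some genes of fatty acid handling outside the enzymes varied widely between libraries of a group. Slc27a2, a fatty acid transporter and synthetase of the tubule, was at 117, 268, 36.5 and 251 in controls and at 340.0, 77.0, 189 and 63.1 in mutants. Fabp3, a fatty acid binding protein, was at 154, 188, 44.9 and 206 in controls and at 193, 66.8, 104 and 113 in mutants. Among the controls both were lowest in control 3, which also had the lowest control sums for markers of the tubules, podocytes, ureteric bud, stroma, endothelium and leukocytes. Among the mutants Fabp3 was lowest in mutant 2 and Slc27a2 in mutant 4. Neither was called (limma adjusted p = 0.989 and 0.872), and both were named after their values were seen.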
